A study of Mus musculus with 23 samples.

Results

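Transcripts of 10 genes of the circadian clock and its direct output, out of 41073 genes in the deposited count tables, were followed in mouse lung epithelial cells from isolation through culture and bacterial exposure: Nr1d1, Nr1d2, Dbp, Tef, Hlf, Per1, Per2, Per3, Ciart and Clock. The genes were taken by symbol, and all 10 passed the filter on low counts in both fits. They were selected on levels measured in these same libraries, so their differences between groups are descriptions and carry no p-value. The number of the 10 past the threshold is set beside the share of all genes only for scale, and nothing is read from it. Tests are given for clock genes outside the 10 and for differences between experiments in groups with replicates. The lists of those other clock genes were also chosen with earlier results of these data known. Bulk RNA was sequenced from EpCAM-positive (a surface marker of epithelium) lung cells of wild-type C57BL/6 mice, which the labels call airway epithelial cells and which were grown on transwell inserts. The groups were freshly isolated cells (3 libraries), cells at airlift, when the apical medium is removed and before any bacteria (6), 4-day air-liquid interface cultures exposed to non-typeable Haemophilus influenzae, a bacterium of the airways abbreviated NTHi (7), and 4-day cultures left untreated (7). Each of 3 experiments, A, B and C, held every group, with 1 library per experiment at isolation. The labels give no time of day of collection, and nothing in them says that the replicates came from distinct animals or cultures. The p-values therefore measure the spread between these libraries, which may be technical.

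The mammalian clock is a feedback loop of transcription. CLOCK, or its relative NPAS2, pairs with BMAL1 and switches on genes that carry an E-box, among them the Per and Cry genes, whose proteins then block that pair. The same pair drives Nr1d1 and Nr1d2, which encode the REV-ERB repressors of Bmal1, and Dbp, Tef and Hlf, which encode activators that bind the D-box and pass the rhythm on to other genes. In mouse tissues, lung included, transcripts of Bmal1 and Npas2 peak at roughly the opposite time of day from those of Nr1d1, Dbp and Per3. Ciart encodes a further repressor of the CLOCK and BMAL1 pair, and Per1 also responds quickly to glucocorticoids and to cyclic AMP.

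RefSeq promoter windows (build GRCm38.p6, from 250 bases before to 50 after a start site) were at hand for 9 of the 10 genes, and 5 of them, with a stretch of Bmal1, are shown as examples of elements that the loop or cyclic AMP acts through. Exact letters were searched on both strands. The E-box CACGTG was in the windows of Tef, Per1 and Ciart, 3 of the 9 genes, and in 7.15% of 32851 promoter windows. The E-prime box CACGTT, which differs in its last letter, was in that of Nr1d1 and in 4.68% of all windows. The D-box, searched as TTATGTAA or TTACGTAA, occurred at 2 places in the window of Per3 and in 1.06% of all windows. The cyclic AMP response element TGACGTCA stood in the window of Hlf, next to its start site, and in 1.79% of all windows. The element that REV-ERB and ROR proteins share, searched as TAGGTCA or TGGGTCA, was in none of the 9 windows and in 6.45% of all windows, but lay just after a start site of Bmal1. For the 5 genes only the bases before the start site are printed, while the stretch of Bmal1 lies after a start site. Matched letters are in capitals, and the window of Tef is not shown. For Nr1d1 the capitals are the E-prime box read on the other strand.
Ciart, chr3:95882229-95882478, minus strand: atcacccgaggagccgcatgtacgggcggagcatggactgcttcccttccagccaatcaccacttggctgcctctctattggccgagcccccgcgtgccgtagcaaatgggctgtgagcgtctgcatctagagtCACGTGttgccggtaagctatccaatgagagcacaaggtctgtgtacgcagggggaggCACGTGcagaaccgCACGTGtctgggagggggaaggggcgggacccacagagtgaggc
Per1, chr11:69098699-69098948, plus strand: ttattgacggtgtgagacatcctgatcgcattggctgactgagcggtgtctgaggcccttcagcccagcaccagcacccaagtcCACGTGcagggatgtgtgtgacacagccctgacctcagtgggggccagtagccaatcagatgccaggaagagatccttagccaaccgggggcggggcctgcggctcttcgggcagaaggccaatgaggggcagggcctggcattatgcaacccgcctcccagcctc
Per3, chr4:151044666-151044915, minus strand: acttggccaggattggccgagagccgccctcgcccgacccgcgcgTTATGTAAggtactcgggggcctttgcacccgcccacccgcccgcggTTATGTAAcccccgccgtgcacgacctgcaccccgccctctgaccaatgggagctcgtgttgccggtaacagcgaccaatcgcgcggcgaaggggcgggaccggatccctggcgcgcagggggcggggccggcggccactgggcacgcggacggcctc
Nr1d1, chr11:98775378-98775627, minus strand: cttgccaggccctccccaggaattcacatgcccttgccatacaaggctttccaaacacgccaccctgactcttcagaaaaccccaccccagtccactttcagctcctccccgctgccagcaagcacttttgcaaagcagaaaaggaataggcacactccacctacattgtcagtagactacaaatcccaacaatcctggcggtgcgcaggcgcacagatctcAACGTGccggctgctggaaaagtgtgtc
Hlf, chr11:90390918-90391167, minus strand: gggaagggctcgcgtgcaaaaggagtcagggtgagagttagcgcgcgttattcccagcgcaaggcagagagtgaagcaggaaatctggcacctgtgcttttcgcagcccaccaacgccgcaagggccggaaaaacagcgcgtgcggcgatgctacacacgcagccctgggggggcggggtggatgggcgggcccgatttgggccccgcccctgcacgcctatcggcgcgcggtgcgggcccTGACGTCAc
Bmal1, chr7:113207532-113207557, plus strand: ggcagaaagTAGGTCAgggacggagg
These matches describe the letters of the windows and no binding was measured.

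Libraries held 32323375 to 39081663 counts. The epithelial marker Epcam was detected in all 23 libraries, at 225 to 566 CPM, while the alveolar type 2 gene Sftpc reached 51918 to 71092 CPM in fresh cells, so these were not airway cells alone. In experiment C, day 4 control replicate 1 and NTHi replicate 3 stood apart from their replicates, by a root mean square log2 difference of 0.341 and 0.371 against 0.178 to 0.324 for the other cultured libraries.

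Levels are normalised read counts in CPM, relative to library totals scaled by the trimmed mean of M values (TMM). Per kilobase of merged exon, Nr1d1 stood far above the other 9 genes in fresh cells, at 366 ± 39.1 CPM per kb (SD, n = 3). Nr1d2 was next at 55.0 ± 2.5 CPM per kb, followed by Per1 at 31.2 ± 7.19 CPM per kb. Tef at 22 ± 5.0, Per2 at 21.8 ± 0.374 and Dbp at 16.6 ± 8.72 CPM per kb did not differ from each other beyond their SD. Ciart, Clock and Per3 followed at 8.77 ± 2.0, 5.24 ± 0.63 and 3.93 ± 0.85 CPM per kb, and Hlf closed the order at 0.506 ± 0.085 CPM per kb. In untreated day 4 cultures the order was different: Tef led at 12.2 ± 0.544 CPM per kb (n = 7), Nr1d1 at 10.6 ± 1.12 and Nr1d2 at 10.1 ± 0.778 CPM per kb lay within their SD of each other, and Clock at 5.92 ± 0.415 CPM per kb stood above all 3 Per genes.

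**Figure D1:**
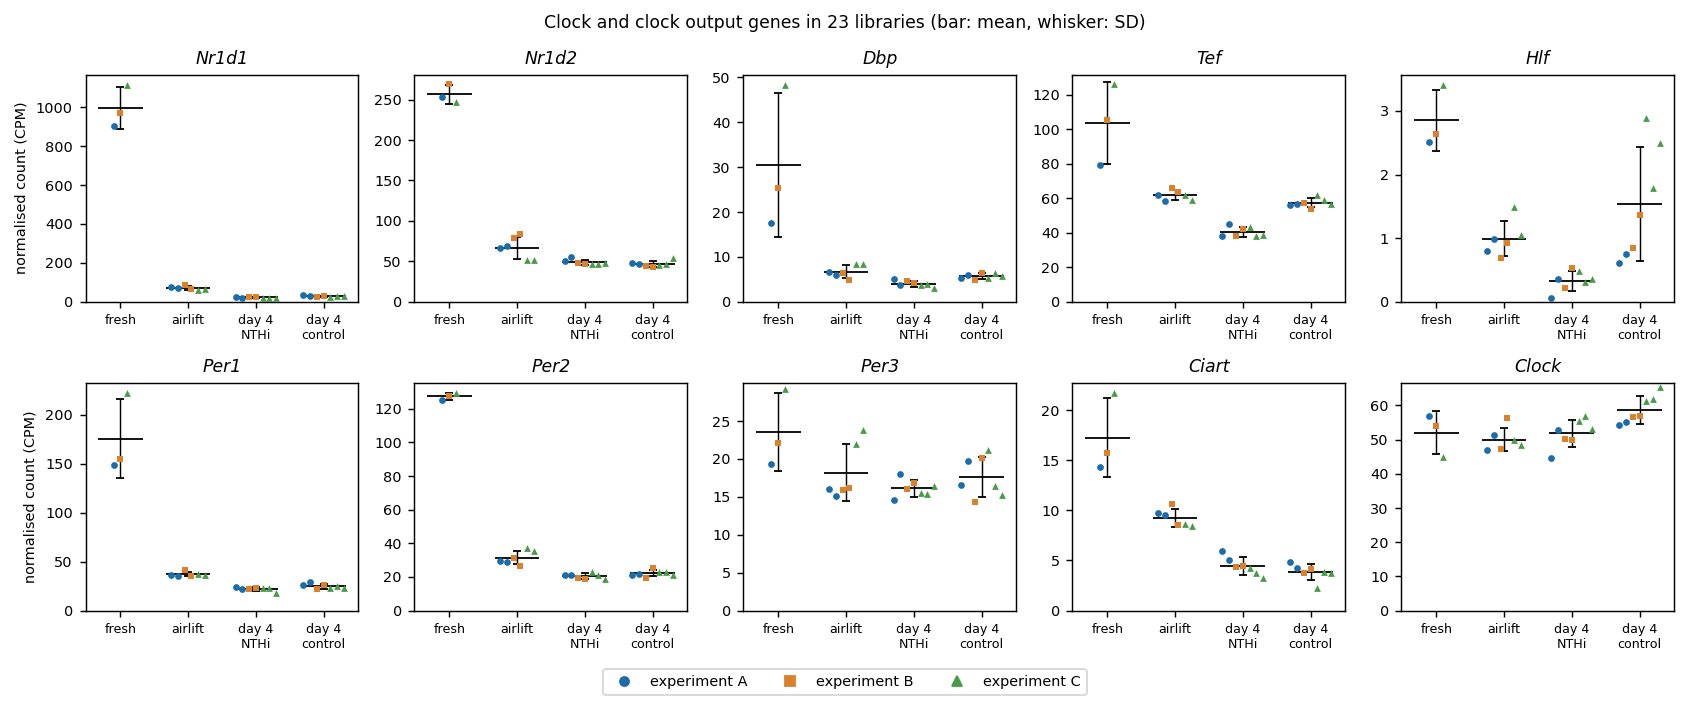
Normalised count (CPM, linear axis from 0) of each of the 10 genes in all 23 libraries, by group; points are libraries, coloured by experiment, lines are means and whiskers SD. Nr1d1 averaged 995 CPM in fresh cells, 70.8 CPM at airlift, 22.4 CPM with NTHi and 28.9 CPM in day 4 controls, whereas Clock stayed between 44.7 and 65.4 CPM in every library.

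At airlift, transcripts of the REV-ERB, Per and D-box factor genes were lower than in fresh cells, and Clock itself was near its fresh level. Of the 10 genes, 9 passed the threshold (edgeR adjusted p below 0.05) as lower and 0 as higher, where 36.7% of all 18302 genes tested were called lower and 37.9% higher. The median log2 difference of the 10 genes was -1.76 and that of all genes 0.00.

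Nr1d1, which encodes REV-ERB alpha, had a lowest, median and highest level of 60.8, 68.9 and 85.7 CPM in the 6 airlift libraries, against 905, 969 and 1113 CPM in the fresh libraries of experiments A, B and C. Every airlift library lay below every fresh one, and the mean was 14.1-fold lower at airlift. The log2 difference was -3.83 ± 0.10 (SE). Nr1d1 shares 9.7% of its exon bases with Thra, the thyroid hormone receptor alpha gene on the opposite strand (annotation of GRCm38), and without known strand use their reads cannot be told apart; Thra itself had 32.4 to 49.5 CPM at airlift and 77.8 to 96.5 CPM in fresh cells. Nr1d2, which encodes REV-ERB beta, had 51.5, 67.7 and 83.7 CPM (lowest, median, highest) at airlift, against 253, 270 and 247 CPM in fresh A, B and C. The groups did not overlap, and the log2 difference was -1.96 ± 0.11.

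The period genes differed among themselves. Per1 had 35.7, 36.7 and 41.4 CPM (lowest, median, highest) at airlift, against 149, 155 and 222 CPM in fresh A, B and C, a log2 difference of -2.24 ± 0.10. Per2 had 26.5, 30.5 and 36.9 CPM at airlift, against 125, 127 and 130 CPM in fresh cells, a log2 difference of -2.04 ± 0.08. For both genes the groups lay well apart. Per3 had 15.2, 16.1 and 23.8 CPM at airlift, against 19.4, 22.1 and 29.2 CPM in fresh cells. Its groups overlapped, although within each experiment airlift lay below fresh, and its log2 difference was -0.39 ± 0.13. Ciart had 8.41, 9.11 and 10.6 CPM at airlift, against 14.3, 15.7 and 21.7 CPM in fresh cells, with no overlap and a log2 difference of -0.92 ± 0.16.

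Among the D-box activators, Dbp had 4.90, 6.49 and 8.37 CPM (lowest, median, highest) at airlift, against 17.6, 25.3 and 48.4 CPM in fresh A, B and C. All 6 airlift libraries were below the fresh ones, and the log2 difference was -2.13 ± 0.17. Dbp shares 29.3% of its exon bases with Sphk2, a sphingosine kinase gene on the opposite strand, which ranged from 49.3 to 62.0 CPM at airlift and from 60.7 to 65.2 CPM in fresh cells. Tef had 58.4, 62.0 and 65.8 CPM at airlift, against 79.4, 105 and 126 CPM in fresh cells, a log2 difference of -0.75 ± 0.08. Hlf was low throughout, with 0.695, 0.952 and 1.49 CPM at airlift, against 2.52, 2.64 and 3.40 CPM in fresh cells, a log2 difference of -1.56 ± 0.27. Neither gene's groups overlapped. Clock had 46.9, 49.2 and 56.3 CPM at airlift, against 57.0, 54.0 and 45.0 CPM in fresh A, B and C, with overlap and a log2 difference of -0.07 ± 0.09.

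**Figure D2:**
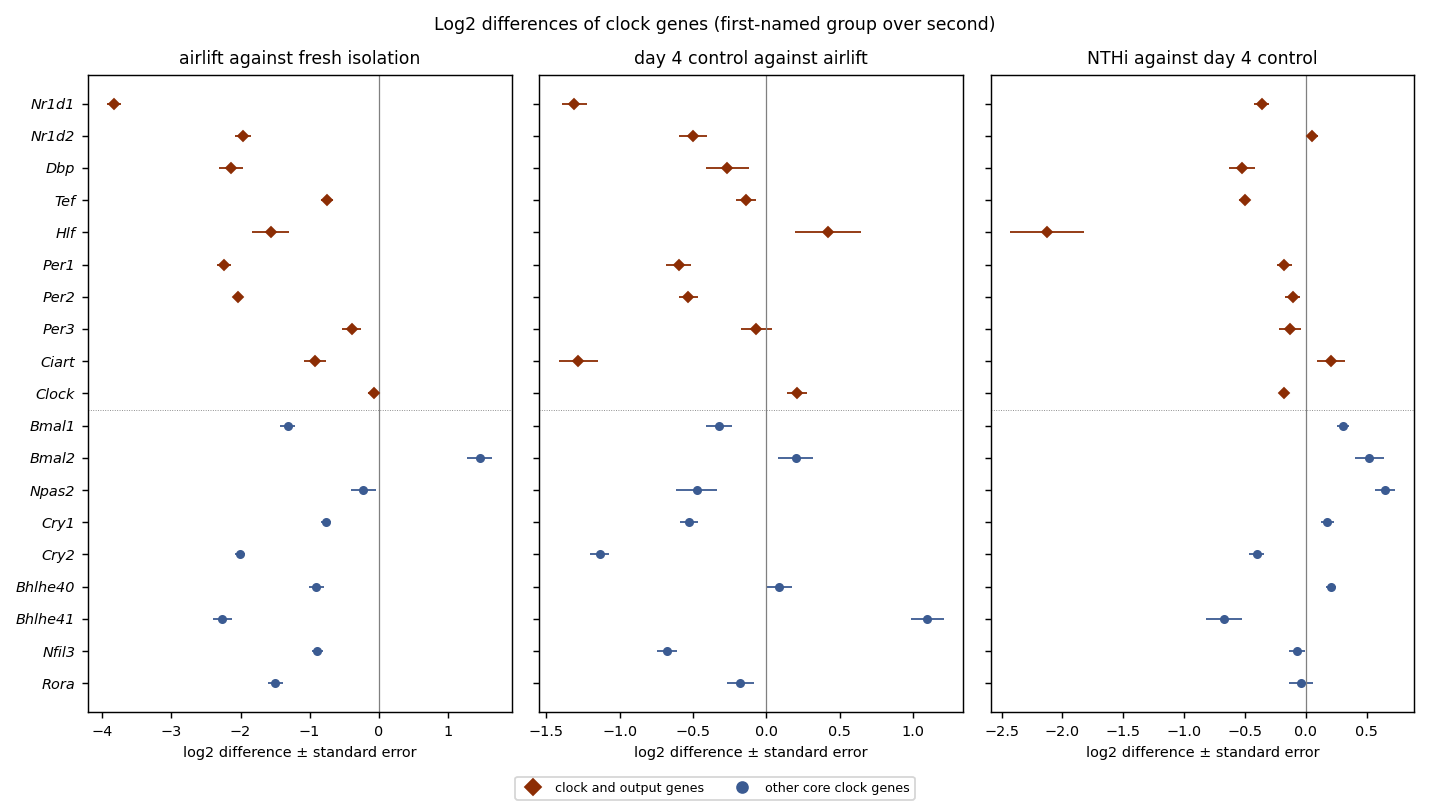
Log2 difference (first-named group over second) with its standard error for the 10 clock and output genes (diamonds) and 9 other core clock genes (circles), in 3 comparisons with axes of different range. At airlift Nr1d1 lies at -3.83 and Cry2 at -2.01; with NTHi Bmal1, Bmal2 and Npas2 lie above 0 and Tef, Dbp and Hlf below it.

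Other clock genes were read from fixed lists and carry a test (edgeR quasi-likelihood, Benjamini-Hochberg over all genes). The lists were chosen with earlier results of these data known, so these tests are not free of that selection. Of the 52 listed, 51 were in the tables and were tested at airlift: 9 rose and 36 fell relative to fresh cells, with a median of -0.54. Of all genes, 37.9% were called higher and 36.7% lower. All 5 repressors fell: Cry2 by 2.01 ± 0.08 on the log2 scale (adjusted p = 6.03e-14), Bhlhe41 by 2.26 ± 0.13 (adjusted p = 2.78e-11), Bhlhe40 by 0.90 ± 0.11, Nfil3, a repressor at the D-box, by 0.89 ± 0.08 and Cry1 by 0.76 ± 0.07. The partners of CLOCK went different ways: Bmal1 fell by 1.32 ± 0.10 (adjusted p = 2.03e-09), Bmal2 rose by 1.47 ± 0.18 (adjusted p = 7.53e-07) and Npas2 gave -0.22 ± 0.18 (adjusted p = 0.268). The value of Npas2 turned on single fresh libraries: it was 0.19 without that of A (edgeR adjusted p = 0.287) and -0.55 without that of C (adjusted p = 0.00144). Rora and Rorb, which encode receptors that compete with REV-ERB at its element, fell as well. Rora fell by 1.5 ± 0.11 (adjusted p = 4.56e-10) and Rorb by 2.74 ± 0.39 (adjusted p = 3.74e-06). Rorb was near the floor, with 2 to 8 counts per airlift library and 20 to 26 per fresh library.

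Of 15 output genes with daily rhythms in mouse tissues, 14 fell and 1 rose. The smallest p-values were those of Fmo2 (-3.78 ± 0.13), Lonrf3 (-3.02 ± 0.11), Noct, the gene of nocturnin (-1.99 ± 0.07), and Rgcc (-4.01 ± 0.16); Tspan4 rose by 1.28 ± 0.08. Of 12 tested genes for turnover of PER and CRY proteins, 2 rose and 7 fell, among them Usp2, a deubiquitinase (-1.47 ± 0.15), Csnk1e, a kinase of PER (-0.58 ± 0.06), Gsk3b (-0.62 ± 0.07), and Csnk2a1, which rose by 0.70 ± 0.06. Of 13 cofactors, 4 rose and 7 fell; Sirt1, a deacetylase, fell by 2.17 ± 0.14, and Hdac3, Tipin and Nono rose by 0.77 ± 0.06, 1.22 ± 0.10 and 0.62 ± 0.05.

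Scaling touches these comparisons. With library totals in place of TMM, the median of all genes moved to 0.49 at airlift against fresh. Per3 then read 0.10 and Clock 0.42, both below that median, and the other clock genes split into 16 higher and 23 lower. The share of all genes called was not computed under library totals. Immediate-early and cell type genes moved as well. All 13 immediate-early genes fell at airlift, Fosb to a mean of 10.5 CPM against 2796 CPM in fresh cells, and 8 of 9 glucocorticoid targets fell, a list that includes Per1. The 6 markers of alveolar type 2 cells, led by Sftpc, summed to 1022 to 1098 CPM at airlift and 77442 to 101321 CPM in fresh cells, and all 6 fell. The 4 club cell markers summed to 19037 to 26515 CPM at airlift and 163088 to 180664 CPM in fresh cells, and all 4 fell. The 10 macrophage and monocyte markers summed to 2999 to 3470 CPM at airlift and 18362 to 24720 CPM in fresh cells, mostly Lyz2, which alveolar type 2 cells also express; 7 fell and 1 rose. The 5 ciliated cell markers, with 99.1 to 201 CPM at airlift and 460 to 734 CPM in fresh cells, all fell. The 6 neutrophil markers summed to 6.16 to 9.04 CPM at airlift and 18.1 to 40.7 CPM in fresh cells, and all 3 that could be tested fell. Of the defining ones, Ly6g and Elane were each at 0 in 4 of 6 airlift and 2 of 3 fresh libraries, and Mpo in 5 airlift libraries and 0 fresh ones. The 7 lymphocyte markers summed to 18.3 to 22.6 CPM at airlift and 52.8 to 67.2 CPM in fresh cells (6 fell), and the 6 endothelial markers to 17.0 to 32.9 CPM and 70.7 to 85.3 CPM (5 fell). The 4 markers of dividing cells went the other way, with 199 to 258 CPM at airlift and 46.1 to 52.5 CPM in fresh cells, and all 4 rose; so did 4 of 6 mesenchyme markers, with 27.6 to 77.2 CPM at airlift and 9.97 to 12.9 CPM in fresh cells. Of 5 alveolar type 1 markers 4 fell and 1 rose (890 to 1307 CPM at airlift and 1530 to 1817 CPM in fresh cells), and of 5 basal cell markers 2 fell (23.8 to 101 CPM and 44.8 to 134 CPM). The part of these shifts in the clock genes was not tested, and in bulk RNA fewer cells of a type and less RNA per cell cannot be told apart.

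From airlift to day 4 without bacteria, Nr1d1, Ciart, Per1 and Per2 were lower again. Among the 10 genes, 1 passed the threshold as higher and 5 as lower, where 26.9% and 27.7% of all genes were called. The median log2 difference was -0.38 for the 10 genes and -0.02 for all genes. Nr1d1 had 24.9, 27.8 and 33.2 CPM (lowest, median, highest of 7) in day 4 controls, against 60.8, 68.9 and 85.7 CPM at airlift, a log2 difference of -1.31 ± 0.08. Ciart had 2.27, 3.89 and 4.86 CPM in day 4 controls, against 8.41, 9.11 and 10.6 CPM at airlift, a log2 difference of -1.28 ± 0.13. In both genes no control library reached the lowest airlift library. Per1 had 22.4, 25.5 and 29.3 CPM in day 4 controls, against 35.7, 36.7 and 41.4 CPM at airlift (log2 difference -0.60 ± 0.09), and Per2 had 19.3, 21.7 and 25.3 CPM, against 26.5, 30.5 and 36.9 CPM (log2 difference -0.53 ± 0.07), also without overlap. Nr1d2 was lower by a log2 difference of -0.50 ± 0.10, with overlapping groups. Clock had 54.2, 56.8 and 65.4 CPM in day 4 controls, against 46.9, 49.2 and 56.3 CPM at airlift, a log2 difference of 0.21 ± 0.07; within each experiment the controls lay above airlift, and across experiments the groups overlapped. Without experiment C its value was 0.13. Dbp, Tef, Per3 and Hlf gave -0.27 ± 0.15, -0.14 ± 0.07, -0.07 ± 0.11 and 0.42 ± 0.23, all with overlap; without experiment A, Hlf read 0.72.

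The other clock genes split into 14 that rose and 22 that fell at day 4 relative to airlift (edgeR adjusted p below 0.05). Of all genes, 26.9% were called higher and 27.7% lower. Without experiment B, 12 of the other clock genes fell, and the share of all genes was not computed there. Cry2 fell by 1.14 ± 0.07 on the log2 scale (adjusted p = 9.52e-11), to 20.3 ± 1.73 CPM in day 4 controls (n = 7) against 44.1 ± 4.08 CPM at airlift (SD, n = 6). Nfil3 fell by 0.68 ± 0.07, Cry1 by 0.53 ± 0.06, Npas2 by 0.47 ± 0.14 and Bmal1 by 0.32 ± 0.09 (adjusted p = 1.55e-07, 5.88e-07, 0.0084 and 0.0047). Bhlhe41 rose by 1.10 ± 0.11 (adjusted p = 1.75e-07). Bmal2 and Bhlhe40 gave 0.20 ± 0.12 and 0.08 ± 0.09 (adjusted p = 0.173 and 0.441); Bhlhe40 read -0.07 without experiment A and 0.32, called, without C. The calls of Npas2 and Bmal1 were lost without experiment B (-0.49 and -0.25). Rora and Rorb gave -0.18 ± 0.09 and -0.38 ± 0.40 (adjusted p = 0.106 and 0.44), where Rora passed without day 4 control replicate 3 of experiment C (-0.24). Of the 15 output genes 7 rose and 6 fell, with the smallest p-values for Por, the reductase partner of cytochromes P450 (-0.91 ± 0.06), Fmo2 (1.56 ± 0.11), Alas1, the entry enzyme of haem synthesis (0.80 ± 0.06), and Tsc22d3, a glucocorticoid-induced leucine zipper protein (-0.80 ± 0.06). Of the 12 turnover genes 3 rose and 4 fell, and of the 13 cofactors 3 rose and 6 fell. Of 9 glucocorticoid targets 2 rose and 6 fell, and of 13 immediate-early genes 2 rose and 5 fell. The part of these inputs in the clock genes was not tested. All 6 mesenchyme markers rose, to a sum of 195 to 497 CPM in day 4 controls against 27.6 to 77.2 CPM at airlift, as did all 5 basal cell markers (114 to 413 CPM against 23.8 to 101 CPM), all 5 alveolar type 1 markers (1951 to 2437 CPM against 890 to 1307 CPM) and all 5 ciliated cell markers (181 to 422 CPM against 99.1 to 201 CPM). Of 6 alveolar type 2 markers 5 rose, to a sum of 2988 to 3636 CPM in day 4 controls against 1022 to 1098 CPM at airlift. Of 10 macrophage and monocyte markers 5 rose and 3 fell, with sums of 5905 to 12573 CPM in day 4 controls and 2999 to 3470 CPM at airlift. The 4 club cell markers summed to 3873 to 5621 CPM in day 4 controls and 19037 to 26515 CPM at airlift, mostly Scgb1a1, which fell while the other 3 rose. All 4 markers of dividing cells fell (142 to 176 CPM against 199 to 258 CPM). Smaller sums belonged to endothelium, where 2 rose and 3 fell (22.1 to 40.5 CPM in day 4 controls and 17.0 to 32.9 CPM at airlift), lymphocytes, where 2 of 7 rose (16.6 to 32.7 CPM and 18.3 to 22.6 CPM), and neutrophils, where 1 of 3 tested fell (3.67 to 6.86 CPM and 6.16 to 9.04 CPM); the part of any of these markers in the clock genes was not tested.

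Over the whole untreated course, day 4 control against fresh isolation, 9 of the 10 genes passed the threshold as lower and 0 as higher, where 37.7% and 38.8% of all genes were called. This comparison shares its libraries with both steps. The log2 differences were -5.14 ± 0.10 for Nr1d1, -2.84 ± 0.10 for Per1, -2.57 ± 0.08 for Per2, -2.46 ± 0.11 for Nr1d2, -2.40 ± 0.17 for Dbp, -2.20 ± 0.16 for Ciart, -1.14 ± 0.26 for Hlf, -0.88 ± 0.08 for Tef and -0.46 ± 0.13 for Per3. Clock gave 0.14 ± 0.08. Without the fresh library of A it read 0.25. With library totals Per3 read 0.02, where the median of all genes was 0.49. Of the other clock genes 9 rose and 36 fell, with 17 and 25 under library totals; Cry2 fell by 3.14 ± 0.07 (edgeR adjusted p = 8.98e-17) and Bmal2 rose by 1.67 ± 0.18 (adjusted p = 1.09e-07).

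The treatment comparison asked how the clock genes stood in cultures exposed to NTHi. Tef, Dbp, Hlf and Nr1d1 were lower with NTHi, and Clock and Per1 were lower by less. Per2, Per3 and Nr1d2 were close to control, and the partners of CLOCK were higher. Among the 10 genes, 6 passed the threshold as lower and 0 as higher, where 20.4% and 20.1% of all 16337 genes were called. The median log2 difference was -0.18 for the 10 genes and 0.00 for all genes.

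Tef had 38.2, 38.6 and 45.0 CPM (lowest, median, highest of 7) with NTHi, against 54.0, 57.0 and 62.2 CPM in day 4 controls. The groups did not overlap, and the log2 difference was -0.50 ± 0.05. Hlf had 0.054, 0.357 and 0.531 CPM with NTHi, which is 2 to 20 counts per library, against 0.617, 1.37 and 2.89 CPM in controls, which is 24 to 122 counts. Most low counts in these tables were even (69.3% to 74.9% of those below 20), so the fragments behind them may be fewer than the counts. Again no library overlapped, and the log2 difference was -2.13 ± 0.30, or -1.95 without the 2 libraries that stood apart. Dbp had 3.04, 3.88 and 5.06 CPM with NTHi, against 4.95, 5.82 and 6.48 CPM in controls; only the highest NTHi library, of experiment A, reached into the control range, within each experiment NTHi lay below control, and the log2 difference was -0.52 ± 0.11. Sphk2, which overlaps Dbp, had 45.2 to 55.8 CPM with NTHi and 49.7 to 56.1 CPM in controls.

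Nr1d1 had 20.6, 22.1 and 26.8 CPM (lowest, median, highest) with NTHi, against 24.9, 27.8 and 33.2 CPM in controls. NTHi lay below control within each experiment, the pooled groups overlapped, and the log2 difference was -0.36 ± 0.06. Thra, on the opposite strand, had 27.2 to 34.9 CPM with NTHi and 30.1 to 37.7 CPM in controls. Clock had 44.7, 52.8 and 56.8 CPM with NTHi, against 54.2, 56.8 and 65.4 CPM in controls, with the same ordering within each experiment and a log2 difference of -0.18 ± 0.04. Per1 had 18.2, 22.6 and 23.9 CPM with NTHi, against 22.4, 25.5 and 29.3 CPM in controls, with overlap in experiments B and C and a log2 difference of -0.18 ± 0.06. Nr1d2, Per2, Per3 and Ciart gave log2 differences of 0.05 ± 0.05, -0.11 ± 0.06, -0.13 ± 0.09 and 0.21 ± 0.11, with overlapping groups.

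All 3 partners of CLOCK rose with NTHi. Bmal1 rose by 0.31 ± 0.05 on the log2 scale (edgeR adjusted p = 0.000216), with 19.9, 22.4 and 24.8 CPM (lowest, median, highest) with NTHi and 16.3, 18.7 and 19.5 CPM in controls, and no overlap. Npas2 rose by 0.65 ± 0.08 (adjusted p = 1.29e-05), with 9.05, 12.4 and 15.4 CPM with NTHi and 7.20, 7.52 and 8.93 CPM in controls, again with no overlap. Bmal2 rose by 0.52 ± 0.12 (adjusted p = 0.00266), with 5.60, 7.17 and 8.26 CPM with NTHi and 3.94, 4.51 and 6.63 CPM in controls; NTHi lay above control within each experiment. Bmal1 and Npas2 were opposite in sign to Clock, Tef, Dbp, Hlf and Nr1d1 in every experiment. Per1, Per2 and Per3 were also lower by mean in every experiment. Ciart had the sign of Bmal1 throughout, with log2 ratios of means of 0.277, 0.141 and 0.199 in A, B and C. Nr1d2 was mixed, at 0.165, 0.104 and -0.055. The genes were grouped by sign after their values were seen. The share of all genes with the same sign in every experiment was not computed, so nothing is read from these signs.

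Of the repressors, Cry2 fell by 0.41 ± 0.06 (adjusted p = 9.01e-05), with 14.4 to 17.7 CPM with NTHi and 17.9 to 22.3 CPM in controls. Bhlhe41 fell by 0.68 ± 0.15 (adjusted p = 0.00201), with 27.8 to 59.2 CPM with NTHi and 47.6 to 85.8 CPM in controls. Its groups overlapped, also within experiment C, where the lowest NTHi and lowest control values were the 2 libraries that stood apart. Cry1 rose by 0.18 ± 0.05 (adjusted p = 0.0159) and Bhlhe40 by 0.21 ± 0.04 (adjusted p = 0.00102), both with overlapping groups. Nfil3 and Rora gave -0.07 ± 0.07 and -0.04 ± 0.10 (adjusted p = 0.401 and 0.786). The call of Cry1 was lost without experiment A (0.15), without experiment B (0.18), without day 4 control replicate 1 of experiment A (0.15) and under library totals (0.12).

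**Figure D3:**
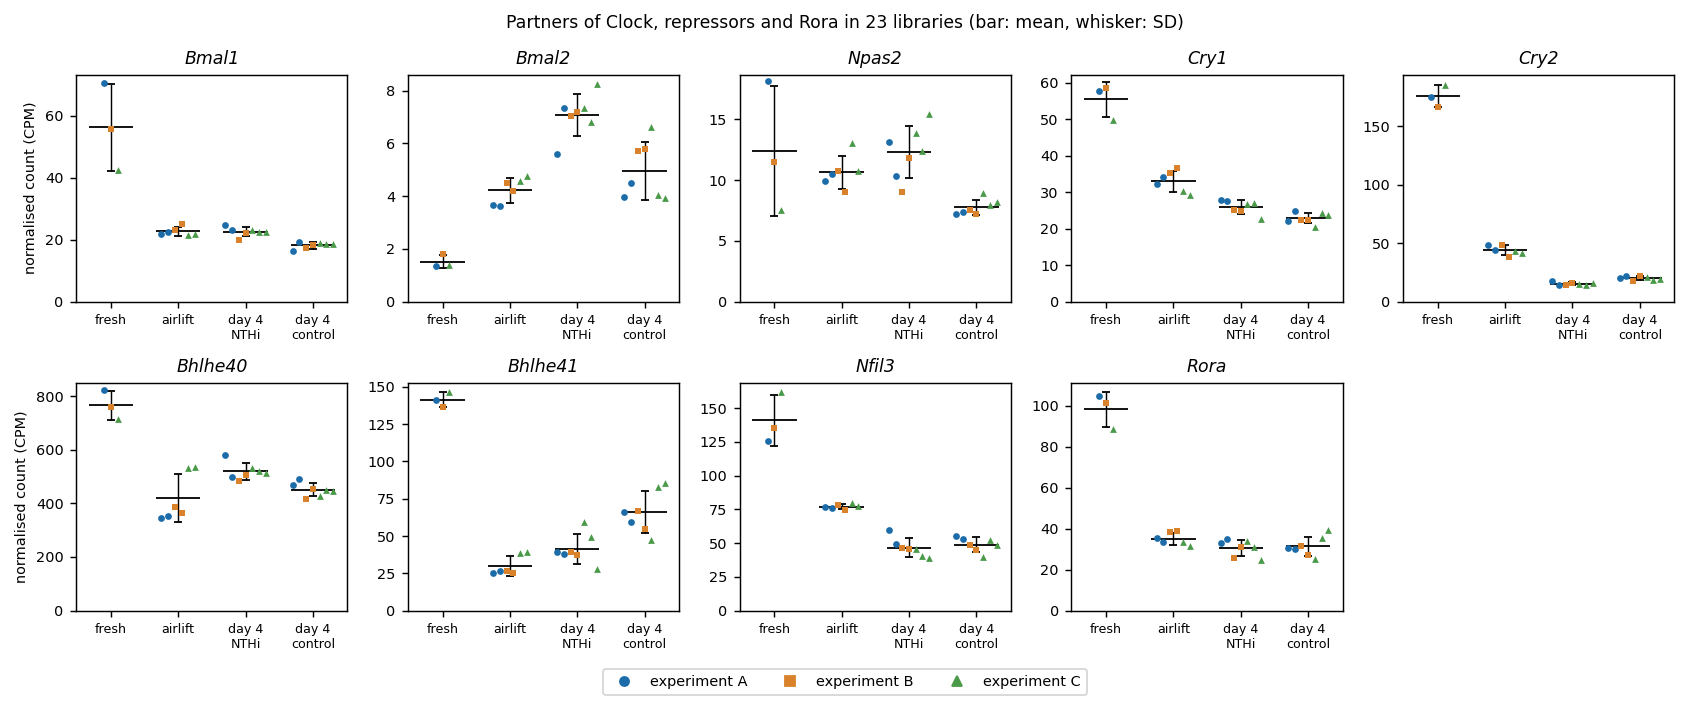
Normalised count (CPM, linear axis from 0) of 9 clock genes outside the studied 10 in all 23 libraries, by group; points are libraries, coloured by experiment, lines are means and whiskers SD. Cry2 averaged 176 CPM in fresh cells, 44.1 CPM at airlift, 15.4 CPM with NTHi and 20.3 CPM in day 4 controls.

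Together, 16 of the 50 other clock genes tested rose with NTHi and 10 fell. Of all genes, 20.1% were called higher and 20.4% lower. Under library totals 9 of the other clock genes rose and 14 fell, and the share of all genes was not computed there. Of 12 turnover genes 6 rose and 1 fell: the kinase gene Csnk1a1 rose by 0.24 ± 0.04, Usp7 by 0.15 ± 0.04 and Fbxw7 by 0.18 ± 0.05, and Usp2 fell by 0.46 ± 0.11; the calls of Usp7 and Fbxw7 were lost under library totals. Of 13 cofactors 3 rose, Crtc2 (0.29 ± 0.04), Hdac3 (0.20 ± 0.04) and Kdm5a (0.18 ± 0.04), and 1 fell, the kinase gene Sik1 (-0.33 ± 0.05). Of 15 output genes 2 rose and 6 fell, the smallest p-values being those of Fmo2 (-1.40 ± 0.12), Rgcc (-1.81 ± 0.19), Klf10 (0.40 ± 0.05) and Wee1, a cell cycle kinase (-0.28 ± 0.04). The 5 alveolar type 1 markers summed to 920 to 991 CPM with NTHi and 1951 to 2437 CPM in controls, and 4 fell and 1 rose. The 10 macrophage and monocyte markers summed to 2514 to 6185 CPM with NTHi and 5905 to 12573 CPM in controls; 6 fell, among them C1qa, and 2 rose. All 4 club cell markers fell, with sums of 2242 to 2817 CPM with NTHi and 3873 to 5621 CPM in controls. Of 6 alveolar type 2 markers 3 rose and 2 fell, with sums of 1098 to 1330 CPM with NTHi and 2988 to 3636 CPM in controls. The 6 neutrophil markers summed to 6.59 to 24.8 CPM with NTHi and 3.67 to 6.86 CPM in controls, mostly S100a8 and Csf3r; 2 of 3 tested rose, and Mpo and Elane were at 0 in all 7 NTHi libraries and Ly6g in 5. Of 5 basal cell markers 4 fell (53.2 to 187 CPM with NTHi and 114 to 413 CPM in controls), of 6 lymphocyte markers tested 3 fell (7.77 to 19.2 CPM and 16.6 to 32.7 CPM), and of 5 endothelial markers tested 2 fell and 1 rose (10.3 to 17.3 CPM and 22.1 to 40.5 CPM). Mesenchyme markers, at 176 to 524 CPM with NTHi and 195 to 497 CPM in controls, gave 1 higher and 2 lower of 6, and 1 of 5 ciliated and 1 of 4 dividing cell markers fell. Of 9 glucocorticoid targets, a list that includes Per1, 1 rose and 5 fell, and of 13 immediate-early genes 2 rose and 4 fell. The part of any of these in the clock genes was not tested.

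The NTHi effect was compared across experiments. For Tef the log2 ratio of means was -0.44, -0.46 and -0.57 in A, B and C, for Hlf -1.73, -1.58 and -2.64, for Npas2 0.69, 0.50 and 0.74, and for Bmal1 0.42, 0.24 and 0.27. The joint test of a different NTHi effect between experiments called 0 of the 10 genes and 0.00% of all genes (edgeR quasi-likelihood F-test); at an unadjusted p below 0.05 it gave 0 of the 10 and 675 genes in all, and DESeq2's likelihood ratio test called 5 genes in all and 0 of the 10.

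Each experiment had 1 fresh library, so a difference between experiments there cannot be told apart from variation between libraries, and the fresh values are given as levels with no test. Dbp stood at 17.6, 25.3 and 48.4 CPM in fresh A, B and C, Tef at 79.4, 105 and 126 CPM, and Per3 at 19.4, 22.1 and 29.2 CPM. Per1, Ciart, Hlf and Nr1d1 were also lowest in A and highest in C. Bmal1 ran the other way, at 70.6, 55.9 and 42.4 CPM, as did Npas2 at 18.1, 11.5 and 7.56 CPM and Clock at 57.0, 54.0 and 45.0 CPM. Per2 was nearly level at 125, 127 and 130 CPM, and Nr1d2 lay between 247 and 270 CPM. Of the other core clock genes, Nfil3 was lowest in A and highest in C, at 126, 135 and 162 CPM. Bhlhe40 and Rora were highest in A and lowest in C, and Cry1, Cry2, Bhlhe41, Bmal2 and Rorb had no steady order from A to C. The share of all genes with a steady order was not computed.

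**Figure D4:**
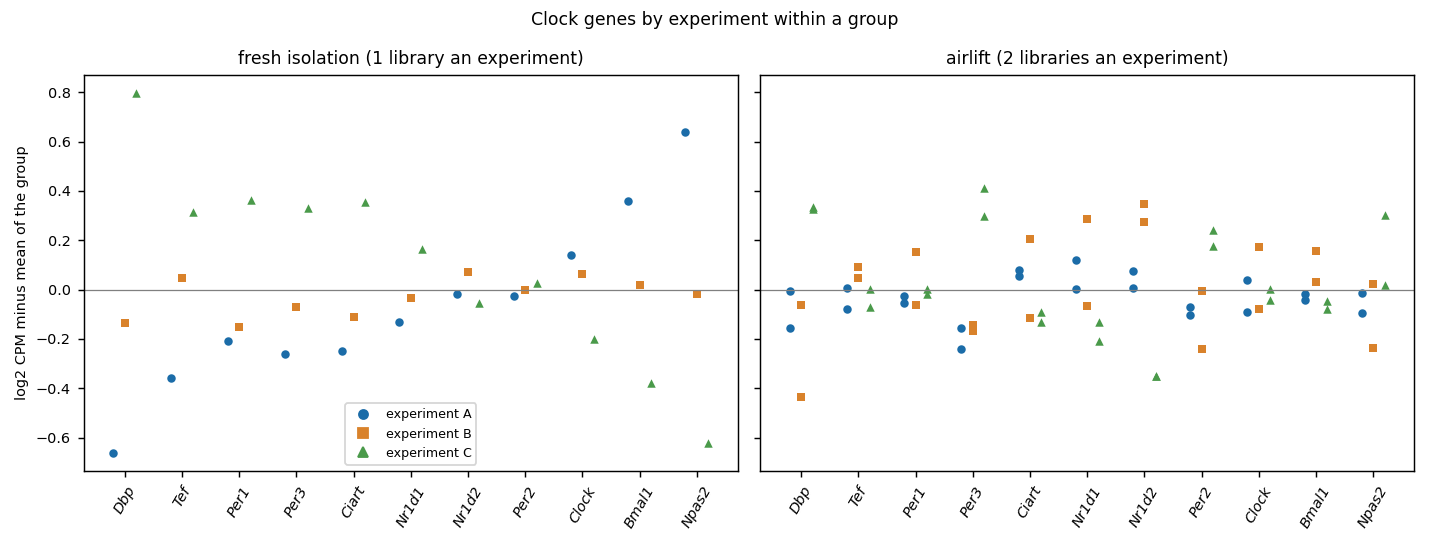
Log2 CPM of 11 clock genes minus the mean of the group, in the fresh libraries (left) and the airlift libraries (right); each point is 1 library, coloured by experiment. In fresh cells Dbp, Tef, Per1, Per3 and Ciart are highest in experiment C while Bmal1 and Npas2 are highest in A. At airlift Dbp and Per3 are again highest in C, while Tef, Per1, Ciart, Bmal1 and Npas2 do not keep that order.

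Sphk2, which overlaps Dbp, was at 64.8, 60.7 and 65.2 CPM in fresh A, B and C. The 13 immediate-early genes summed to between 10906 and 15003 CPM in the fresh libraries, and their part in the clock genes was not tested.

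In the cultures, where experiments had replicates, differences between experiments were tested with a mean of its own for each group and experiment (7 residual degrees of freedom, edgeR quasi-likelihood F-test), a test added after seeing the data. At airlift the test called 7.67% of all genes, and among the 10 only Nr1d2, at 66.1 and 69.3 CPM in A, 79.4 and 83.7 CPM in B, and 51.5 and 51.5 CPM in C (adjusted p = 0.00125). The replicates of an experiment lay close together and the experiments apart. Bhlhe40 differed there as well, with 530 and 534 CPM in C and 345 to 387 CPM in A and B (adjusted p = 0.00071). The other clock genes called numbered 10 of 51, and without 1 day 4 control library of experiment C, which stood apart from its replicates, 18 were called along with 4 of the 10, where 17.7% of all genes were called. In day 4 controls 4.23% of all genes were called, and of the 10 genes Hlf, with 0.617 and 0.748 CPM in A, 0.849 and 1.37 CPM in B and 1.79 to 2.89 CPM in C (adjusted p = 0.00814); without 1 day 4 control library of experiment A its adjusted p was 0.073, where 1.26% of all genes were called.

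Experiment as a term shared by all groups called 10% of genes in the 14 day 4 libraries (edgeR F-test). Of the 10 it called Clock (adjusted p = 0.0354) and Hlf (adjusted p = 0.045). Leaving out single libraries gave 0 to 2 of the 10, and the share of all genes was not computed there. In the 16 untreated libraries the experiment term called 6.04% of genes and, of the 10, Hlf (adjusted p = 0.0197). Whether the experiments differed by another amount at airlift than in day 4 controls was tested in the same way: 1.85% of genes were called, and of the 10 only Nr1d2 (adjusted p = 0.00552), together with 3 of the 51 other clock genes, Bhlhe40 (adjusted p = 0.00529), Sirt1 (0.0157) and Sik1 (0.0259). Without the day 4 control library of experiment C that stood apart, 2 of the 10 genes, 14 of the others and 12.5% of all genes were called, and without an airlift library of C 1 of the 10, 1 of the others and 0.427% or 0.471% of all genes. Nr1d2 and Bhlhe40 were called in all 17 settings, with an adjusted p of at most 0.0457 for each.

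As a description of likeness, each gene's log2 CPM over the 12 means of group by experiment was compared with the mean standardised profile of the 9 genes other than Clock. Pearson's r of the 9 with that mean, which contains them, ran from 0.835 for Per3 and 0.855 for Hlf to 0.989 for Per1, and Clock had -0.235. Among 11598 genes outside the 10, the closest were Sult1d1, a sulfotransferase gene (0.992), Ttll3, a tubulin-modifying enzyme gene (0.991), Gpr155 (0.991), Dnajb4, a heat shock cochaperone gene (0.989), and Fcgrt, the neonatal Fc receptor gene (0.987). Of the core genes outside the 10, Cry2 came closest at 0.975 and Bmal2 ran opposite at -0.96. These 12 points share the large step from fresh cells to culture, and many genes follow it.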

How the data were processed

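Bulk RNA was sequenced in 23 libraries of mouse lung epithelial cells. For each experiment the authors deposited a table of raw counts, whole numbers per gene without normalisation. Per the submitters' processing notes, the tools include STAR and DESeq2 and the build is GRCm39, with no versions. The counter, annotation and strand setting were not given in the sources used here, so reads of overlapping or antisense genes cannot be told apart. Of the 41098 lines of a table, 25 were broken fragments and were left out with at most 0.082% of a library's counts, leaving 41073 genes. Libraries held 32323375 to 39081663 counts. Of counts below 20, 69.3% to 74.9% were even. No pair of replicates agreed within counting noise (chi-square per degree of freedom of 2.97 or more over genes), so no libraries were merged; this does not show that they are independent.

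Differences were fitted with edgeR 4.0.16 (R 4.3.3): filterByExpr with a minimum count of 10, TMM scaling, a quasi-likelihood F-test with group and experiment as terms, and Benjamini-Hochberg adjustment over all genes at 0.05. NTHi was compared with control on 14 libraries (16337 genes) and the untreated groups on 16 (18302 genes). CPM use TMM-scaled totals of all 23 libraries. The SE is the log2 difference divided by the square root of F. The fits were tested on simulated data. DESeq2 1.42.0, other scalings, no filter, no experiment term, halved counts, a replicate block and leaving out libraries or experiments were tried. Alternatives without 2 libraries that stood apart, and the tests of experiments within airlift and day 4 control, were added after seeing the data. The 10 genes and the gene lists were chosen with earlier results of these data known. Named genes are the 10, all partners of CLOCK, repressors, Rora and Rorb, up to 4 with the smallest p of each other list, and the 5 of closest profile; genes named beyond this, such as Tspan4, Thra, Sphk2, Gsk3b and the markers, were chosen after their values were seen. One gene the rule also takes is not reported here. Promoter sequences are from RefSeq (GRCm38.p6) and exon overlaps and lengths from the GENCODE annotation of GRCm38, another build than that of the counts, so no coordinates were joined to them.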

Additional observations from a re-analysis of the deposited data

Results flagged for a closer look

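In 4 of 63 sets of libraries tested, 1 library stood apart from the rest of its group, and chance gives about 1 in 20. Nr1d1 was highest with NTHi in experiment A replicate 1, at 26.8 CPM, and Cry2 in the same library, at 17.7 CPM. Per1 was highest at airlift in experiment B replicate 1, at 41.4 CPM, and lowest with NTHi in experiment C replicate 3, at 18.2 CPM.

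For 2 genes the differences between experiments were not the same at airlift as in day 4 controls, by the joint edgeR F-test: Bhlhe40 (adjusted p = 0.00529) and Nr1d2 (adjusted p = 0.00552). The log2 difference of C minus A at airlift and in day 4 controls was -0.41 and 0.06 for Nr1d2, and 0.59 and -0.11 for Bhlhe40.

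Between airlift and day 4 control, 3 of 21 clock genes looked at went opposite ways in experiments A and C, with all libraries of an experiment on 1 side. The share of all genes that did so was not computed. With so few libraries per experiment such a split can arise by chance, so nothing is read from the number. The log2 ratio of means, day 4 control over airlift, was -0.383 in A and 0.915 in C for Hlf, 0.215 in A and -0.378 in C for Per3, and 0.46 in A and -0.272 in C for Bhlhe40. In the test above, which takes B as well, Hlf had an adjusted p of 0.257 and Per3 of 0.292; the difference of A and C was not tested on its own.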

How the results depend on the processing

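Most values kept their side of the threshold under the alternatives: 3440 of the values recomputed were counted as the same, 38 lost and 17 gained a call, and 10 changed direction. For the 10 genes a change of direction was counted only where the gene was called in either fit. Turns between uncalled values of these genes may therefore be among the 3440. Library totals gave 9 other clock genes higher with NTHi, 16 higher and 23 lower at airlift and 17 higher for day 4 control against fresh; 1 of the 10 genes, Clock, was then higher at airlift and 1 at day 4 against fresh, where no filter and leaving out experiment A also gave 1 and leaving out single libraries 0 to 1. Under library totals Per3 read 0.095 at airlift and 0.02 at day 4 against fresh, Clock 0.417 and Npas2 0.265 at airlift. Npas2 at airlift read 0.18 without experiment A and -0.547 to 0.189 without single libraries, the extremes without fresh C and fresh A. Rora with NTHi read 0.051 without experiment C and -0.098 to 0.017 without single libraries. For day 4 control against airlift, leaving out experiment A gave 2 of the 10 higher and -0.067 for Bhlhe40, leaving out C gave 0, and leaving out B gave 12 other clock genes lower. The share of all genes called was not computed under these alternatives, and the cause was not tested.

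For experiment terms, leaving out single libraries gave 0 to 2 of the 10 and 2 to 5 other clock genes at day 4, and 0 to 1 and 1 to 3 in untreated libraries, where no filter gave 3 and 6, DESeq2 6 and halved counts 2 other genes. For these terms the shares of all genes without single libraries were not computed. Within airlift the ranges were 1 to 4 of the 10 and 1 to 18 others, where 0.887% to 17.7% of all genes were called. In day 4 controls they were 0 to 1 and 0 to 8, where 1.26% to 9.65% of all genes were called. DESeq2 size factors and halved counts gave 2 others there, with 4.21% and 4.88% of all genes. For the test of airlift against day 4 controls the ranges were 1 to 2 and 1 to 14, where 0.427% to 12.5% of all genes were called. The highest counts of other genes came without day 4 control replicate 1 of experiment C. Libraries of 1 replicate number gave correlations of -0.628 to 0.216 between NTHi and control, and of -0.127 to 0.002 between control and airlift. These used deviations from the mean of experiment and group, so 2 replicates in both groups give 1 value repeated. They cannot show whether the libraries were paired. The replicate block gave 16 other clock genes higher and 10 lower with NTHi, and 9 and 35 at airlift. It gave 14 and 20 from airlift to day 4, and 8 and 35 from fresh to day 4. The share of all genes was not computed under the replicate block. Rora from airlift to day 4 then passed at -0.25. Depth limits Hlf, with 2 counts in 1 NTHi library, and Rorb, at 0.047 to 0.211 CPM in cultures.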
